A study of Mus musculus with 10 samples.

Results

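The interphotoreceptor matrix proteoglycans Impg1 and Impg2, the carrier Rbp3 and 5 genes that move or convert retinoids were followed in cultured mouse retina. The 8 genes were taken by name (Impg1, Impg2, Rbp3, Abca4, Rdh8, Rdh12, Rpe65 and Lrat), and their members were all peaks that the deposited annotation assigned to these symbols. They held 49 of 108253 peaks. Abca4 had 24 peaks, Impg1 had 8, Rbp3 had 5, Impg2 and Rdh12 had 4 each, Rdh8 had 3, Rpe65 had 1 and Lrat had none. Of the 49 peaks, 10 were annotated as promoters and 39 lay outside promoters.

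Retinas of wild-type C57BL/6J mice at postnatal day 28 were freed of sclera and retinal pigment epithelium (RPE) and cultured for 48 hours in medium with 5 mM or 25 mM glucose. CUT&Tag, in which an antibody brings a transposase to a modified histone, was used to map histone H3 lactylated at lysine 18 (H3K18La, 3 libraries at each glucose level) or acetylated at lysine 27 (H3K27Ac, 2 libraries at each). All groups shared genotype, age and culture time, and the labels gave 1 batch for all libraries. The comparison asked how glucose supply related to the occupancy of each mark at these genes.

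The interphotoreceptor matrix fills the space between the photoreceptor outer segments and the RPE. Impg1 and Impg2 encode its hyaluronan-binding proteoglycans. Rbp3 encodes IRBP, a soluble protein made by photoreceptors that carries retinoids across this space. In the visual cycle, light converts 11-cis-retinal to the all-trans form. ABCA4 flips retinal conjugates out of the disc lumen, and RDH8 and RDH12 reduce all-trans-retinal to retinol in photoreceptors. In the RPE, LRAT esterifies retinol and RPE65 isomerises the ester, which closes the cycle. Both histone marks are commonly found at active promoters and enhancers.

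Promoter sequences were compared for genes with and without a peak. Each window runs from 250 bases before to 50 bases after the RefSeq start site on GRCm38.p6, 5′ to 3′ on the strand of the gene. Capitals mark GGATTA, the reverse complement of TAATCC, which is the core that CRX and OTX homeodomain factors bind. The first 4 windows lay wholly inside a promoter peak, and the last 2 overlapped no peak of their gene.

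Impg1 (chr9:80465389-80465688, minus strand): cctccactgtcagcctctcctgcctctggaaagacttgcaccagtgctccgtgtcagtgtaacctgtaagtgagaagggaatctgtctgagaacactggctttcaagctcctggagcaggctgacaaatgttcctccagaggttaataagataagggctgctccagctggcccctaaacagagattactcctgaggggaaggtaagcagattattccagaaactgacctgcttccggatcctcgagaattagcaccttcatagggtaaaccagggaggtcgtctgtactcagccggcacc
Rbp3 (chr14:33953753-33954052, plus strand): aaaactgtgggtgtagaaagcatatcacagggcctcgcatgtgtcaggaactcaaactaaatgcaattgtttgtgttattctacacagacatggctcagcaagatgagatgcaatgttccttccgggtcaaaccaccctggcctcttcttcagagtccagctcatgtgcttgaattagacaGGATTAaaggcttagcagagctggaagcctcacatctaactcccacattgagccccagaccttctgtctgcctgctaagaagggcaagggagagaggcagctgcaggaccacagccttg
Abca4 (chr3:122044210-122044509, plus strand): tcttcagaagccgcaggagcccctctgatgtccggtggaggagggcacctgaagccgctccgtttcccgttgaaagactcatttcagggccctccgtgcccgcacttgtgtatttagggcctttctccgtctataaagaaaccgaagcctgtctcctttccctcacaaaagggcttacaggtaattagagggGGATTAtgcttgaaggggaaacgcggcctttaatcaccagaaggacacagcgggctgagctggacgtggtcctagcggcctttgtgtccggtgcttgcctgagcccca
Rdh8 (chr9:20818244-20818543, plus strand): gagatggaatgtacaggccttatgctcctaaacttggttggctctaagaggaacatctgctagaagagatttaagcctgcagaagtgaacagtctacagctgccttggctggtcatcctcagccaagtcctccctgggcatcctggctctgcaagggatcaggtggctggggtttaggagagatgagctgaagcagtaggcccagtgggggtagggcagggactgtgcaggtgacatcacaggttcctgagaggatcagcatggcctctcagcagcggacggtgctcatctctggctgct
Rpe65 (chr3:159598931-159599230, plus strand): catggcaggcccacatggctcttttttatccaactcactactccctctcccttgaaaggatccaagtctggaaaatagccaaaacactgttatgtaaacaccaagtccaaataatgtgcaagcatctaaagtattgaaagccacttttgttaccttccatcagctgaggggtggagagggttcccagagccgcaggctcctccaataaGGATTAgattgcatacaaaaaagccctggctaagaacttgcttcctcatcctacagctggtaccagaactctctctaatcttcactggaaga
Lrat (chr3:82903925-82904224, minus strand): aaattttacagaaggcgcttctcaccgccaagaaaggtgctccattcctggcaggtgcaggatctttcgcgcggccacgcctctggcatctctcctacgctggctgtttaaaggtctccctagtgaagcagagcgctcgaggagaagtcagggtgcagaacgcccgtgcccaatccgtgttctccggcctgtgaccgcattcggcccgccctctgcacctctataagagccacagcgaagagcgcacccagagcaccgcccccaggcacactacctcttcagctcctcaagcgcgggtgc

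TAATCC on either strand was found in the windows of Rbp3, Abca4 and Rpe65, and in 7.06% of all 32851 RefSeq promoter windows of this length. Its first base lay 69 bases before the start site in Rbp3, 58 before it in Abca4 and 42 before it in Rpe65. The core therefore occurred both in windows with a peak and in one without. GGGCGG or its reverse complement CCGCCC occurred 2 times in Lrat, in no other of the 8 windows, and in 35.7% of all windows. The Lrat window also had the highest GC content of the 8, 60.7%, with 21 CpG dinucleotides, against 15 in Abca4 and 5 or fewer in the other 6. A match of letters describes a window and does not show a bound site.

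No H3K18La or H3K27Ac signal was recorded at the RPE members of the cycle. Lrat had no peak. The number of peaks, 108253, is that given in the paper for merged H3K18La consensus peaks of developing retina. A missing peak therefore does not show that these explants lacked either mark. The only Rpe65 peak (chr3:159576806-159577121, intergenic, 22054 bp before the start site) held 0 reads in each of the 10 libraries, where 3 reads, the limit that a count of 0 allows, would have given 1.28 to 6.99 RPKM (reads per kilobase of peak per 1000000 reads of the library's denominator). The table gives values for peaks alone, so the level at the Rpe65 and Lrat promoters themselves was not measured. RPE was removed at dissection. Other RPE markers were not all silent. Of 8 listed (Best1, Tyr, Tyrp1, Pmel, Mlana, Slc16a8, Krt18 and Mitf), 6 had a peak, none of these 6 was at 0 in every library, and Pmel and Mlana had none. Their level per length, 3.43 to 3.85 RPKM for H3K18La and 4.45 to 5.15 RPKM for H3K27Ac at 25 mM, lay below that of rod markers, 6.00 to 11.2 and 23.6 to 36.4 RPKM. It did not lie below that of every other cell type, since Müller glia markers had 1.89 to 2.39 RPKM for H3K18La and microglia markers 2.32 to 2.50 and 2.02 to 2.34 RPKM.

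The remaining 6 genes carried both marks in every library, and all of their group ranges were separated by glucose. For each gene, reads in its peaks were summed per library and divided by the covered length, giving a level in RPKM. Every library at 25 mM lay above every library at 5 mM for each of the 6 genes and both marks. The share of all genes with separated ranges was not counted. In the fits below, 53.9% (H3K18La) and 55.5% (H3K27Ac) of all genes were called higher.

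Impg1 and Impg2, the matrix proteoglycans, rose in both marks. H3K18La over Impg1 was 1.2, 1.04 and 1.21 RPKM at 5 mM and 5.69, 3.89 and 3.67 RPKM at 25 mM in replicates 1 to 3. H3K27Ac over Impg1 was 3.34 and 4.80 RPKM at 5 mM and 11.6 and 8.89 RPKM at 25 mM. For both marks the gap between the glucose levels was wider than the range within either level. H3K18La over Impg2 was 2.37, 1.93 and 0.969 RPKM at 5 mM and 10.8, 7.06 and 7.45 RPKM at 25 mM. H3K27Ac over Impg2 was 3.17 and 6.95 RPKM at 5 mM and 14.6 and 12.2 RPKM at 25 mM, so that the 5 mM replicates differed more than the 25 mM replicates.

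Rbp3, whose product carries retinoids through the matrix, had a wide spread at 25 mM. Its H3K18La level was 2.38, 2.21 and 3.30 RPKM at 5 mM and 14.6, 6.96 and 6.22 RPKM at 25 mM. Its H3K27Ac level was 6.09 and 10.7 RPKM at 5 mM and 50.4 and 28.1 RPKM at 25 mM. Replicate 1 at 25 mM was the highest library for both marks.

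Abca4, the retinal-conjugate flippase, was spread over 20527 bp of peaks. Its H3K18La level was 1.69, 1.55 and 1.15 RPKM at 5 mM and 5.11, 4.78 and 3.60 RPKM at 25 mM. Its H3K27Ac level was 4.33 and 6.89 RPKM at 5 mM and 16.2 and 14.2 RPKM at 25 mM. At 25 mM its replicates lay closer together than those of Rbp3 in both marks.

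The photoreceptor retinol dehydrogenases differed in level. Rdh8, the outer segment enzyme, had an H3K18La level of 3.1, 2.92 and 2.41 RPKM at 5 mM and 18.9, 13.2 and 10.9 RPKM at 25 mM. Its H3K27Ac level was 8.78 and 17.9 RPKM at 5 mM and 58.6 and 38.2 RPKM at 25 mM. Rdh12, the inner segment enzyme, had an H3K18La level of 1.5, 0.796 and 0.934 RPKM at 5 mM and 2.74, 2.11 and 2.89 RPKM at 25 mM, from 4 to 27 reads per library. Its H3K27Ac level was 4.11 and 7.25 RPKM at 5 mM and 14.2 and 14 RPKM at 25 mM. Rdh8 had the highest mean of the 6 genes in every group and Rdh12 the lowest H3K18La mean at both glucose levels.

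At 25 mM the order of the mean H3K18La levels per length was Rdh8 (14.3 ± 4.14 RPKM, SD, n = 3), Rbp3 (9.26 ± 4.63), Impg2 (8.45 ± 2.08), Abca4 (4.49 ± 0.794), Impg1 (4.41 ± 1.11) and Rdh12 (2.58 ± 0.416). Neighbours in this order overlapped in range, apart from Impg2 over Abca4 and Impg1 over Rdh12. For H3K27Ac the order was Rdh8 (48.4 ± 14.4 RPKM, SD, n = 2), Rbp3 (39.2 ± 15.8), Abca4 (15.2 ± 1.39), Rdh12 (14.1 ± 0.1), Impg2 (13.4 ± 1.7) and Impg1 (10.2 ± 1.92). Rdh8 and Rbp3 overlapped and stood above the other 4 genes, and Impg1 lay below the rest.

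**Figure D1:**
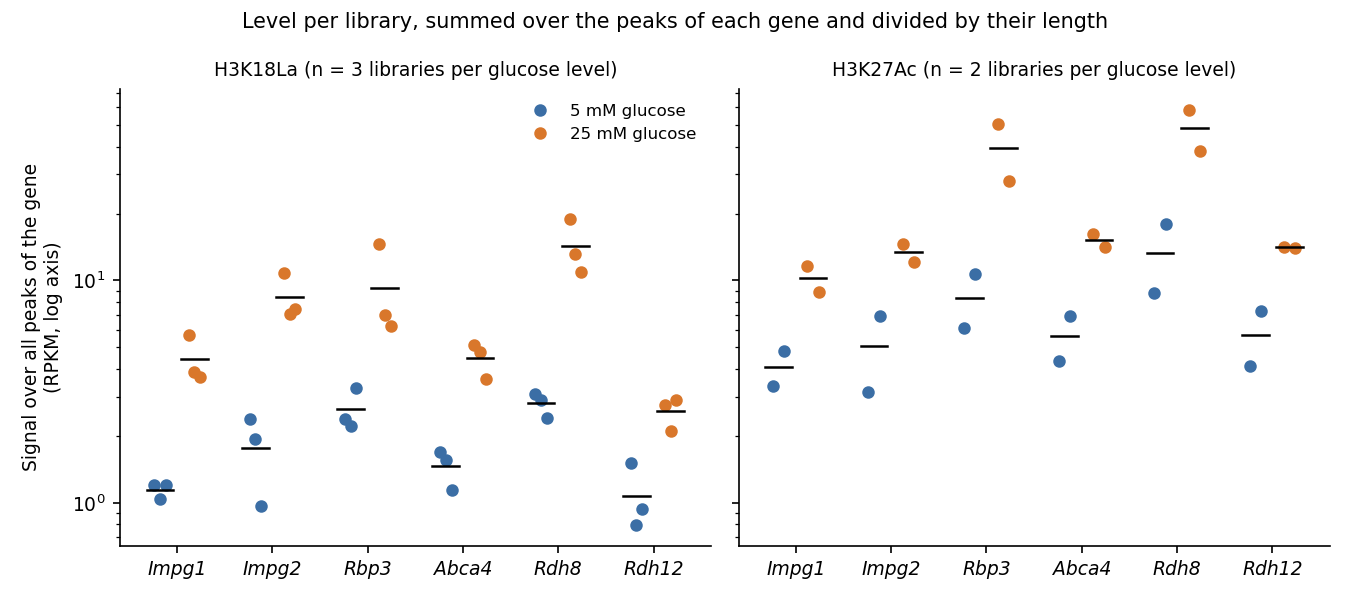
Level of each gene per library (RPKM over all its peaks, log axis) for H3K18La (left) and H3K27Ac (right), with points for libraries, black lines for group means, and glucose levels by colour. For every gene drawn the 25 mM libraries lie above the 5 mM libraries, and Rdh8 has the highest mean in each group. The share of all genes separated in this way was not counted.

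Tested over all genes, the 6 genes with signal were higher at 25 mM in both marks (limma on log2(signal + 0.5), Benjamini-Hochberg adjusted p below 0.05). The same test called 53.9% of all 17890 genes higher for H3K18La and 55.5% of 19499 for H3K27Ac, so a rise was common in the whole table. For H3K18La the log2 fold changes were 2.24 ± 0.277 (SE) for Impg2 (adjusted p = 4.81e-07) and 2.24 ± 0.236 for Rdh8 (adjusted p = 4.40e-08). They were 1.85 ± 0.230 for Impg1, 1.69 ± 0.247 for Rbp3, 1.61 ± 0.163 for Abca4 and 1.18 ± 0.330 for Rdh12 (adjusted p = 0.00492, the largest of the 6). The median was 1.77, against 1.02 over all genes tested.

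For H3K27Ac the largest difference was at Rbp3, with a log2 fold change of 2.21 ± 0.473 (SE, adjusted p = 8.59e-05). Rdh8 followed with 1.90 ± 0.461 (adjusted p = 0.000438). Impg2, Abca4, Rdh12 and Impg1 had 1.48, 1.47, 1.34 and 1.33, with adjusted p from 0.00332 to 0.00939. The median was 1.47, against 0.996 over all genes tested. The H3K27Ac errors come from the trend of variance over all genes, not from each gene's own 4 libraries, and its calls rested on single libraries. Without replicate 1 at 25 mM none of the 6 genes passed, with log2 fold changes of 1.14 (Impg1) to 1.79 (Rbp3) and adjusted p of 0.237 to 0.393. The loss was common to the table, where 0.352% of all genes were then called higher. Without replicate 2 at 25 mM only Rbp3 and Rdh8 passed, where 23.8% of all genes did, although the log2 fold changes of the 6 genes were as large as before, from 1.35 (Rdh12) to 2.63 (Rbp3), with larger errors. Without replicate 1 at 5 mM Impg2 (0.92, adjusted p = 0.0703) and Rdh12 (0.94, adjusted p = 0.0679) did not pass, and without replicate 2 at 5 mM Impg2 had 2.03. The 6 H3K18La calls held when each of the 6 libraries was left out in turn.

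Reads falling in peaks were a larger share of the denominator at 25 mM for both marks, 31.2% to 35.0% against 11.8% to 12% for H3K18La and 56.5% and 69.5% against 21.1% and 31.5% for H3K27Ac. The members were therefore also expressed per 1000000 reads in peaks of the same library, which removes any difference in that share. The share of all genes with ranges separated on this scale was not counted. Rdh8 was still separated by glucose for both marks. For H3K18La it had 63.2, 60.0 and 49.9 reads per 1000000 in peaks at 5 mM and 132, 102 and 85.4 at 25 mM. For H3K27Ac it had 102 and 139 at 5 mM and 207 and 166 at 25 mM.

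The H3K18La ranges of Impg1 and Impg2 were separated on this scale, although neither gene passed the fit (adjusted p = 0.227 and 0.0915). Impg2 had 75.0, 61.6 and 31.2 H3K18La reads per 1000000 in peaks at 5 mM and 118, 84.8 and 90.8 at 25 mM. Impg1 had 67.1, 58.4 and 68.6 at 5 mM and 109, 82.5 and 79.0 at 25 mM. Their H3K27Ac ranges overlapped, with ratios of means of 1.05 for Impg1 and 1.15 for Impg2.

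For Rbp3 and Abca4 the H3K27Ac ranges were separated on this scale and the H3K18La ranges overlapped. Rbp3 had 161 and 189 H3K27Ac reads per 1000000 in peaks at 5 mM and 405 and 277 at 25 mM, a ratio of means of 1.95, beside 1.26 for H3K18La. Abca4 had 420 and 449 H3K27Ac reads per 1000000 in peaks at 5 mM and 477 and 516 at 25 mM, and its ratio of means was 1.14 for H3K27Ac and 1.12 for H3K18La. It passed the fit for neither mark (adjusted p = 0.554 for H3K18La and 0.294 for H3K27Ac). The difference between marks was not tested on this scale. Rdh12 overlapped in both marks, and its H3K18La mean was lower at 25 mM than at 5 mM (25.0 against 28.5).

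The 3 against 3 H3K18La libraries allowed no exact permutation p below 0.1, and the 2 against 2 H3K27Ac libraries none below 0.333. In the fit across all genes on this scale, Rdh8 passed for H3K18La (log2 fold change 0.84, adjusted p = 0.0456, the largest over its 13 alternatives), and Rbp3 (0.94) and Rdh8 (0.63, adjusted p = 0.0037) passed for H3K27Ac. On this scale 1.98% of all genes were called higher for H3K18La and 5.16% for H3K27Ac. The H3K18La value of Rdh12 turned to -0.14 (adjusted p = 0.834). On the denominators, 99.9% of the called genes for H3K18La and 99.7% for H3K27Ac were higher, and per reads in peaks these were 48.4% and 28.2%. The 2 scalings shifted the median of all genes by over 1 log2 unit, and which of them describes amounts of the mark per cell cannot be told apart here. The paper's immunoblots of such explants, relative to histone H3, showed more H3K18La with glucose and no significant change in H3K27Ac. Those blots cover bulk histones and not these genes.

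**Figure D2:**
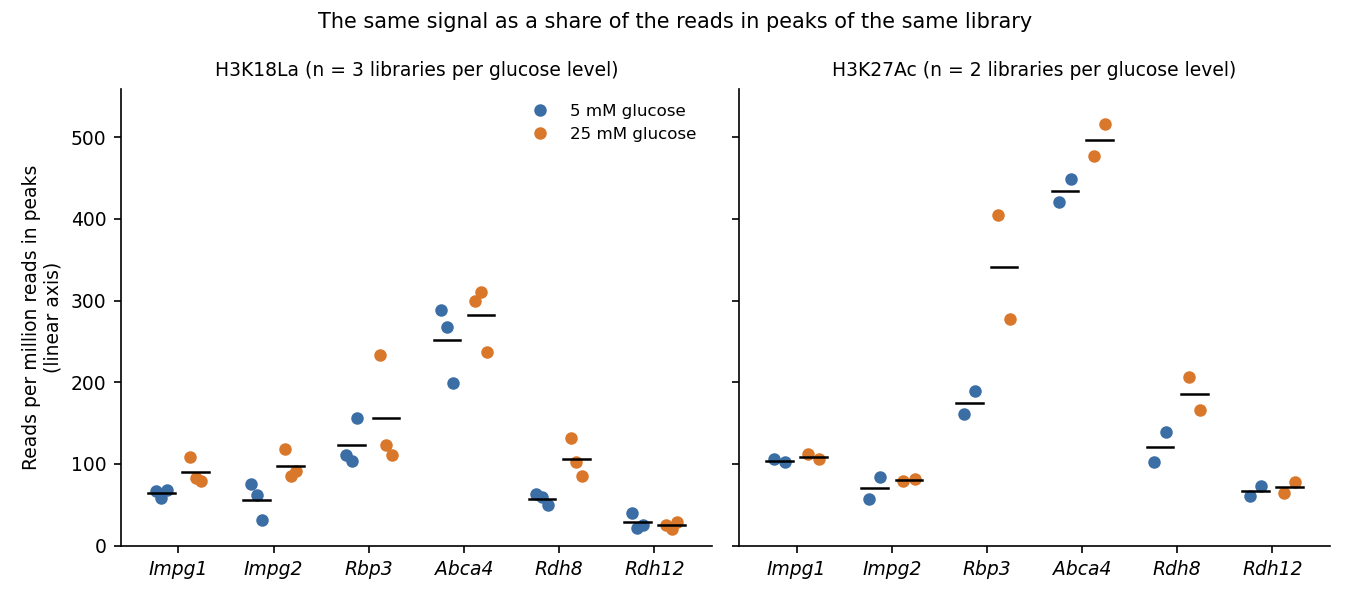
The same signal as reads per 1000000 reads in peaks of the library (linear axis from 0), with points for libraries and lines for group means. The ranges of the glucose groups do not overlap for Rdh8 in either mark, for Impg1 and Impg2 in H3K18La and for Rbp3 and Abca4 in H3K27Ac, and no difference between the marks was tested on this scale. The share of all genes with separated ranges was not counted.

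Among single peaks the calls were all rises. Of the 49 peaks, 33 passed the minimum mean of 1 RPKM for H3K18La, and 18 of them were higher and none lower at 25 mM, where 37.3% of all peaks tested were called higher. For H3K27Ac 47 passed, and 24 were higher and none lower, where 33.9% of all peaks tested were called higher. Falls were hard to call with this fit. Of 50 simulated peaks lowered 4-fold, 30 passed the minimum and 0 were called for H3K18La. For H3K27Ac 41 passed and 4 were called. Of 50 lowered 8-fold, 3 and 15 were called. The lack of lower calls therefore does not show that no member peak fell. For H3K18La 10 of the 33 passed only through their 25 mM libraries, having a mean under 1 RPKM at 5 mM, and 6 of these 10 were called. The corresponding numbers for H3K27Ac were 2 and 1. With every peak kept, 11 of the 49 were called for H3K18La, where 16.8% of all 108253 peaks were called higher, and none for H3K27Ac, where no peak of the table was called (31013 had an unadjusted p below 0.05). Leaving out either 25 mM library also brought the H3K27Ac count to 0 (7 and 15 member peaks had an unadjusted p below 0.05 without replicate 1 and 2). The median log2 fold change of the 47 was then 1.21 and 1.12, against 1.10 with all libraries, so the median did not fall, while every H3K27Ac peak call given below rests on both of them. The peak calls of both marks also rest on the scaling, since 3 and 3 member peaks were called with median centring and 0 and 0 per reads in peaks.

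Calls were also counted by position. Of the 10 promoter peaks, 9 were tested for H3K18La and 7 were higher, where 33.3% of all promoter peaks were, and 2 of these 7, in Rdh12 and Abca4, passed the minimum only through their 25 mM libraries. For H3K27Ac 8 of 10 were higher, where 57.0% of all promoter peaks were. Outside promoters 11 of 24 peaks for H3K18La and 16 of 37 for H3K27Ac were higher, against 38.2% and 27.8% of all such peaks. Of these, 4 of the 11 and 1 of the 16 passed the minimum only through their 25 mM libraries. The difference between the positions was not tested.

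The Impg1 promoter peak (chr9:80465295-80466534), which holds the Impg1 window printed above, was among the stronger peaks of the table, above 90.6% to 99.4% of peaks in each library. Its H3K18La values were 3.44, 3.73 and 2.97 RPKM at 5 mM and 24.2, 14.9 and 15.0 RPKM at 25 mM. The log2 fold change was 2.22 ± 0.272 (SE, adjusted p = 0.000417). Its H3K27Ac values were 10.3 and 17.3 RPKM at 5 mM and 50.2 and 35.8 RPKM at 25 mM, a log2 fold change of 1.64 ± 0.535 (adjusted p = 0.0135). The strongest other peak of Impg1, in intron 1 (chr9:80459086-80459892), was weak, at 0.239 to 3.65 RPKM for H3K18La, and passed for neither mark (adjusted p = 0.278 and 0.0591), although it did for H3K18La without replicate 3 at 5 mM (adjusted p = 0.0469) and for H3K27Ac without replicate 1 or 2 at 5 mM (adjusted p = 0.0273 and 0.0387), and voom called it for both (log2 fold change 1.75, adjusted p = 0.0177, and 1.12, adjusted p = 0.0385). Its H3K18La log2 value ran from 0.21 without replicate 2 at 5 mM to 1.45 without replicate 3, beside 0.82 with all libraries. Farther into Impg1, a pair of intron 11 peaks had lower H3K27Ac at 25 mM in both libraries, with log2 values of -0.37 and -0.57 that did not pass (adjusted p = 0.536 and 0.280).

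At Impg2 the stronger H3K18La peak was intergenic, 3112 bp before the start site (chr16:56200234-56201201), with 3.92, 4.78 and 2.28 RPKM at 5 mM and 19.4, 17.5 and 21.6 RPKM at 25 mM. This was a log2 fold change of 2.31 ± 0.282 (SE, adjusted p = 0.000412), with groups far apart. Its H3K27Ac values, 4.54 and 10.1 RPKM at 5 mM and 15.5 and 14.5 RPKM at 25 mM, did not pass (log2 fold change 1.08, adjusted p = 0.0707). The H3K27Ac value was 0.54 without replicate 1 at 5 mM and 1.62 without replicate 2 at 5 mM, where it passed (adjusted p = 0.000395), and voom also called it (adjusted p = 0.0384). The Impg2 promoter peak (chr16:56203970-56204662) was called in both marks. Its H3K18La values were 4.79, 1.67 and 0 RPKM at 5 mM and 25.7, 6.03 and 6.81 RPKM at 25 mM (log2 fold change 2.59 ± 0.761, adjusted p = 0.0210), from 7, 6 and 0 reads at 5 mM. This call was lost without replicate 2 at 5 mM (log2 fold change 2.73, adjusted p = 0.0517) or replicate 1 at 25 mM (1.95, adjusted p = 0.102), and with a pseudocount of 0.1 in place of 0.5 (3.43, adjusted p = 0.0669). Its log2 fold change was 1.67 without replicate 3 at 5 mM, the library with 0 reads, and 3.37 without replicate 1 at 5 mM. Its H3K27Ac values were 4.00 and 11.2 RPKM at 5 mM and 42.1 and 23.3 RPKM at 25 mM (log2 fold change 2.14 ± 0.511, adjusted p = 0.00116). Without replicate 1 or 2 at 5 mM the H3K27Ac log2 fold change was 1.45 or 2.82.

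The Rbp3 promoter peak (chr14:33953405-33956457) was the longest member peak at 3053 bp. It had 2.17, 2.02 and 2.41 H3K18La RPKM at 5 mM and 11.3, 6.44 and 5.85 RPKM at 25 mM, with a log2 fold change of 1.58 ± 0.341 (SE, adjusted p = 0.00490). It had 6.82 and 11.4 H3K27Ac RPKM at 5 mM and 59.9 and 30.6 RPKM at 25 mM, with a log2 fold change of 2.22 ± 0.526 (adjusted p = 0.00107). In both marks the 25 mM replicates of this peak differed by more than the lowest of them exceeded the highest 5 mM library. A peak 1030 bp before the start site (chr14:33952366-33952973) had the largest H3K27Ac change of all member peaks, from 4.56 and 10.3 RPKM to 61.3 and 34.3 RPKM (log2 fold change 2.65 ± 0.522, adjusted p = 8.63e-05). Its H3K18La values, 3.12, 2.22 and 3.63 RPKM at 5 mM and 25.1, 11.7 and 4.44 RPKM at 25 mM, passed (log2 fold change 1.75, adjusted p = 0.0177), but not without replicate 2 at 5 mM, replicate 1 at 25 mM or replicate 2 at 25 mM (adjusted p = 0.0664, 0.0718 and 0.053), and its log2 fold change was 2.36 without replicate 3 at 25 mM. All 5 Rbp3 peaks, from 3352 bp before the start site to beyond the 3′ end of the gene, were called higher for H3K27Ac, and 4 of the 5 for H3K18La, 1 of these 4 having passed the minimum only through its 25 mM libraries.

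The Rdh8 promoter peak (chr9:20817909-20819248) had 3.54, 3.17 and 1.65 H3K18La RPKM at 5 mM and 21.6, 15.1 and 14.1 RPKM at 25 mM. The log2 fold change was 2.43 ± 0.316 (SE, adjusted p = 0.000502). Its H3K27Ac values were 10.2 and 21.1 RPKM at 5 mM and 58.9 and 39.3 RPKM at 25 mM (log2 fold change 1.68 ± 0.541, adjusted p = 0.0122), a call lost without replicate 1 at 5 mM (1.17, adjusted p = 0.0543). The intron 1 peak of Rdh8 (chr9:20819823-20820606) held the highest single H3K27Ac value of the members, 78.0 RPKM in replicate 1 at 25 mM, beside 48.8 RPKM in replicate 2 and 8.85 and 15.8 RPKM at 5 mM. It was called in both marks, with log2 fold changes of 1.88 for H3K18La (adjusted p = 0.00316) and 2.33 for H3K27Ac (adjusted p = 0.000847).

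Rdh12 had the weakest H3K18La signal. Of its 2 promoter peaks, with means over the 10 libraries of 5.59 and 5.45 RPKM, the first (chr12:79210148-79210867) had 1.32, 1.34 and 2.05 RPKM at 5 mM and 0.707, 1.37 and 4.21 RPKM at 25 mM, ranges that overlapped, and a log2 difference of 0.11 (adjusted p = 0.880). The same peak was called for H3K27Ac, with 3.21 and 8.27 RPKM at 5 mM and 16.2 and 17.2 RPKM at 25 mM (log2 fold change 1.59 ± 0.487, adjusted p = 0.00868), but not without replicate 1 at 5 mM (0.97, adjusted p = 0.0709), and the value was 2.21 without replicate 2 at 5 mM. The difference between the marks did not pass at this peak (adjusted p = 0.903). The other Rdh12 promoter peak (chr12:79208681-79209837), which overlaps 282 bases of the RefSeq start window, was called in both marks. For H3K18La it rose from 0.820, 0.5 and 0.636 RPKM to 2.64, 2.98 and 2.33 RPKM (log2 fold change 1.45, adjusted p = 0.0211), and it passed the minimum only through its 25 mM libraries. An intron 5 peak (chr12:79215926-79216701) had an adjusted p of 0.0398 for H3K27Ac and 0.0581 for H3K18La. The first was lost without replicate 1 at 5 mM (log2 fold change 0.61 in place of 1.2, adjusted p = 0.280; 1.79 without replicate 2), and the second passed without replicate 1 at 5 mM (adjusted p = 0.0345).

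**Figure D3:**
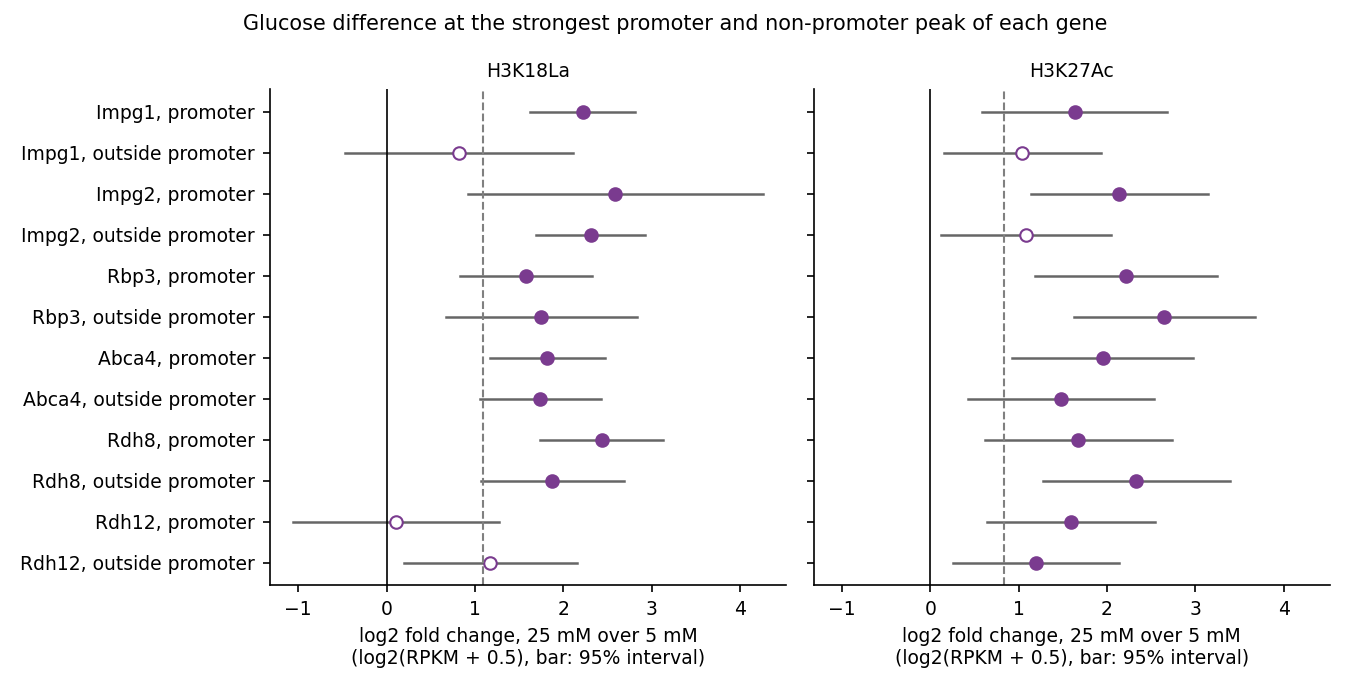
Log2 fold change of 25 mM over 5 mM for the strongest promoter peak and the strongest peak outside promoters of each gene, with 95% intervals (filled: adjusted p below 0.05; dashed line: median of all peaks tested; solid line: 0). The ranking by strength includes the 25 mM libraries, which favours peaks that are high at 25 mM. The Rdh12 promoter peak drawn has 0.11 for H3K18La and 1.59 for H3K27Ac, a difference between marks that did not pass, and its other promoter peak, at 1.45 for H3K18La, is not drawn.

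The Abca4 peaks were spread from 9664 bp before the start site to 131212 bp after it. The promoter peak (chr3:122042442-122045122), which covers the Abca4 window printed above, had 2.48, 2.37 and 2.47 H3K18La RPKM at 5 mM and 12.7, 9.72 and 7.80 RPKM at 25 mM. The log2 fold change was 1.82 ± 0.299 (SE, adjusted p = 0.00127). Its H3K27Ac values were 6.90 and 11.2 RPKM at 5 mM and 43.8 and 28.6 RPKM at 25 mM (log2 fold change 1.95 ± 0.521, adjusted p = 0.00322). The strongest Abca4 peak in both marks lay over exon 3 (chr3:122053275-122054407). Its H3K18La values rose from 5.86, 2.38 and 4.55 RPKM to 12.6, 15.4 and 16.1 RPKM, and its H3K27Ac values from 12.2 and 17.8 RPKM to 45.0 and 39.5 RPKM. The log2 fold changes were 1.74 ± 0.313 (SE, adjusted p = 0.00194) and 1.48 ± 0.537 (adjusted p = 0.0243). Of the other 3 Abca4 peaks annotated as promoters, at alternative starts, 1 was called for each mark, and these were different peaks. The H3K18La call (chr3:122131777-122132197, limma adjusted p = 0.0204) held 0, 2 and 0 reads at 5 mM and passed the minimum only through its 25 mM libraries. The H3K27Ac call lay at chr3:122046185-122046967 (limma adjusted p = 0.0103).

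Abca4 peaks near and far from the start site were then counted apart. A limit of 12 kb, chosen after the values were seen, left 8 peaks within it and 16 beyond it. Within the limit 5 of 8 tested peaks were called higher for H3K18La, 2 of them having passed the minimum only through their 25 mM libraries, and 6 of 8 for H3K27Ac. Beyond it 2 of 7 and 5 of 16 were called, 1 of the 2 and 1 of the 5 again through their 25 mM libraries only. Over all peaks tested the shares called higher were 37.3% and 33.9%, and the difference between near and far was not tested. The share of Abca4 reads within 12 kb, which does not depend on scaling between libraries, was 60.3%, 52.1% and 62.5% at 5 mM and 65.5%, 68.9% and 75.3% at 25 mM for H3K18La. For H3K27Ac it was 55.7% and 59.4% at 5 mM and 71.5% and 64.4% at 25 mM. The share was higher in every 25 mM library than in every 5 mM library, which is a description only, since the limit was picked with these values in view. Peaks 15 to 24 of Abca4, counted along the gene, also overlap the annotated gene Gm43158, and reads of the 2 genes cannot be told apart there.

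**Figure D4:**
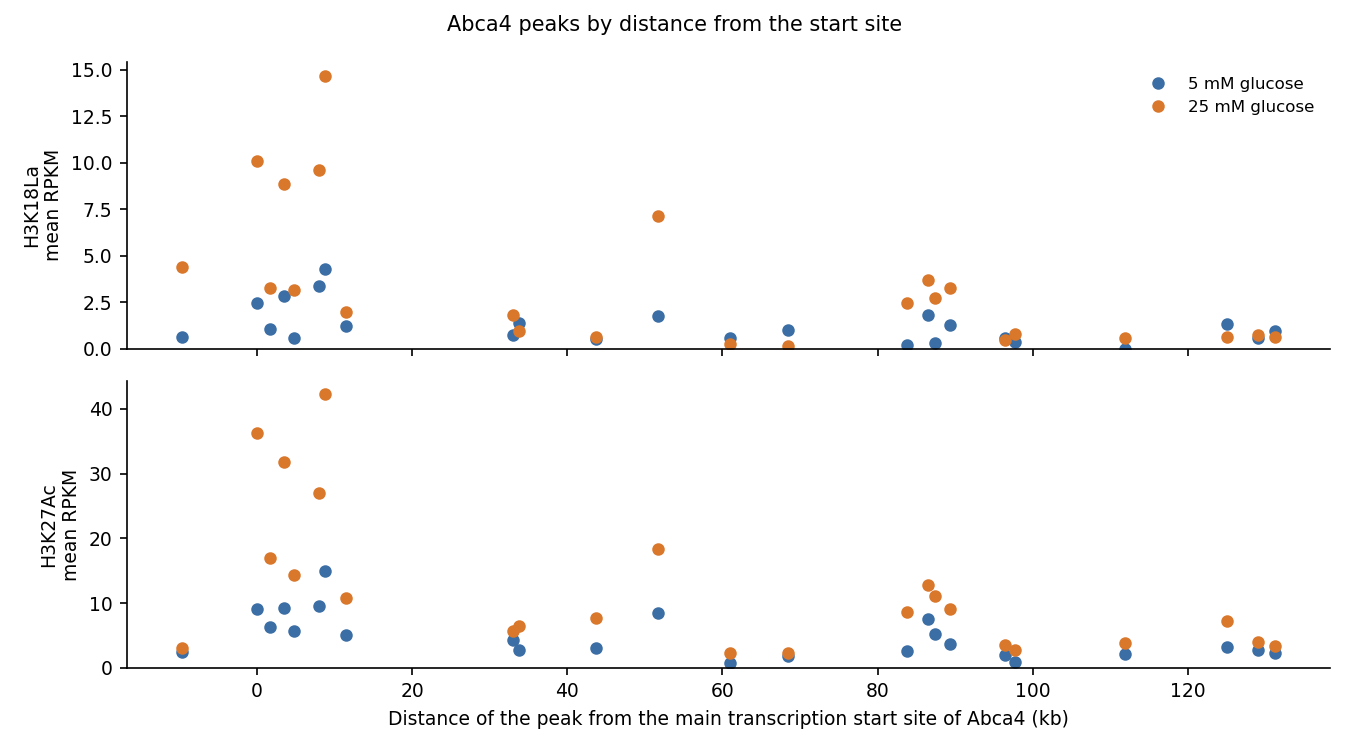
Mean RPKM of the 24 Abca4 peaks by distance from the main start site (kb) for H3K18La (top, n = 3 libraries per glucose level) and H3K27Ac (bottom, n = 2), with 5 mM in blue and 25 mM in orange. The highest values lie within 12 kb of the start site, up to 14.7 RPKM for H3K18La and 42.2 RPKM for H3K27Ac at 25 mM.

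The glucose difference of the members was also compared between the marks, as the log2 fold change in H3K27Ac minus that in H3K18La. No member peak passed among 45 tested (limma interaction term), 0% of all 72467 peaks passed, and 3650 of all had an unadjusted p below 0.05. Of the members, 2 did. The Abca4 peak 9664 bp before the start site had a difference of -1.90 (95% interval -3.58 to -0.22, unadjusted p = 0.0289), and the Impg2 peak 3112 bp before the start site one of -1.23 (95% interval -2.39 to -0.08, unadjusted p = 0.0382). Neither passed after adjustment (adjusted p = 0.903 for both), and this Abca4 peak passed the H3K18La minimum only through its 25 mM libraries. In data simulated with these depths and one assumed spread, the interaction test called 0 of 50 peaks raised 4-fold in H3K27Ac and 5 of 50 raised 8-fold. It missed most differences of these sizes there.

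Summed over the peaks of a gene, the differences between marks ranged from -0.76 for Impg2 (95% interval -1.76 to 0.24) to 0.51 for Rbp3 (95% interval -0.43 to 1.46), and 0 of 6 genes passed (limma, adjusted p of 0.761 or above; 0% of all 19312 genes). The interval of Abca4 ran from -0.85 to 0.57 and that of Rdh12 from -0.80 to 1.13.

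Other genes of the pathways were counted in the same way. Against 53.9% of all genes called higher for H3K18La and 55.5% for H3K27Ac, with medians of 1.02 and 0.996, the lists gave these counts. Among the other visual cycle genes listed, 6 of 11 tested for H3K18La were higher and none lower (median 1.13), and for H3K27Ac 11 of 12 were higher (median 1.18). The 3 with the most summed signal were Stra6, the retinol uptake receptor, with log2 fold changes of 1.44 for H3K18La and 1.10 for H3K27Ac, the retinal reductase Dhrs3 (1.84 and 1.68) and the opsin Rgr (2.02 and 1.60). Of 7 other matrix or matrix-binding genes, 6 had a peak and Has2 had none. For H3K18La 2 of 4 tested were higher, the hyaluronan synthase gene Has3 (1.68) and the metalloproteinase inhibitor gene Timp3 (1.38), and the hyaluronan receptor gene Cd44 was not (0.44, adjusted p = 0.131). For H3K27Ac 0 of 4 passed. The medians of these 4 and 4 genes were 0.91 and 0.57, under those of all genes.

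Markers of photoreceptors and other retinal cells were read against the same shares of all genes, 53.9% and 55.5% called higher. All 9 rod markers listed were higher in both marks, with medians of 2.21 and 1.88 against 1.02 and 0.996 over all genes, and their summed level rose from between 1.49 and 1.80 RPKM to between 6.00 and 11.2 RPKM for H3K18La and from between 5.27 and 9.22 RPKM to between 23.6 and 36.4 RPKM for H3K27Ac. Of 6 cone markers, 5 were higher for H3K18La and 3 for H3K27Ac (medians 1.57 and 0.87). Müller glia markers were higher in 3 and 2 of 5 tested (medians 1.13 and 0.84), and bipolar markers in 1 and 4 of 4 (0.45 and 1.60). Microglia markers were higher in 2 and 1 of 3 tested (medians 1.16 and 0.39), and RPE markers in 2 of 4 and 2 of 5 (0.86 and 0.69). No marker with a peak was at 0 in every library. The part of cell composition in the members' values was not tested. In these bulk libraries, more cells carrying a mark and more of the mark per cell cannot be told apart.

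The gene whose pattern over the 10 libraries was most like that of each member, after the mean of each mark was subtracted, was Rcan1 for Impg1 (Pearson r = 0.999), Kdm1b for Impg2 (0.997), Fam53a for Rbp3 (0.997), Itpr3 for Abca4 (0.999), Spcs2 for Rdh8 (0.998) and Usp32 for Rdh12 (0.993). Such likeness was common. Between 42.9% of the 6430 genes compared, for Rdh12, and 71.3%, for Rdh8, had r above 0.9, and all points shared the same libraries and the glucose difference in total signal.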

How the data were processed

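The deposited table held RPKM values of 10 libraries over one set of peaks, which the authors made from reads aligned to GRCm38 with nf-core/cutandrun, MACS peaks, csaw counting and ChIPseeker 1.34.1 annotation, per the labels and the study's methods. The number of peaks, 108253, equals that of the merged H3K18La consensus peaks which the paper reports for developing retina. Sites marked in these explants alone, or by H3K27Ac alone, may therefore be absent. A second deposited table with the authors' own H3K18La fold changes and p-values was not used. The labels name H3K27Ac in the library titles, while their protocol text lists an antibody to H3K9me3 and pA-MNase, and the study's methods name H3K27Ac and pA-Tn5. All RPKM values were whole multiples of 1 read (within 0.01), which gave reads per peak and denominators of 1358008 to 7424470 reads. Whether normalization factors are part of these is not given in the sources used here. All replicate pairs differed by more than counting noise. The study's methods call the replicates biological, without saying which animals each came from, so p-values measure at most the spread between these libraries. Reads were not counted with molecular identifiers, so floors cover counting error only.

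Log2(RPKM + 0.5) was fitted per mark with limma 3.58.1 in R 4.3.3 (lmFit, eBayes with trend), in place of the study's count model. Of the fits, voom alone used the reads recovered from the RPKM values. Peaks needed a mean of 1 RPKM, genes a mean sum of 1 read per 1000000 reads of the denominator. P-values were Benjamini-Hochberg adjusted over all features tested, with a threshold of 0.05. A fold change on this scale understates that of weak features. Gene sums and library values were computed in Python 3.11.15 with pandas 2.3.3. The H3K27Ac fits had 2 libraries per arm and infinite prior degrees of freedom, so their SEs and p-values come from the mean trend over all features and not from the spread of each feature, and leaving one out assumes that the lone library varies like the others.

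The members and gene lists were chosen with earlier results of these data known. Of each member, the promoter peak and the non-promoter peak with the highest mean over 10 libraries were described one by one, and of each other list at most the 3 genes with the highest signal. Peaks described beyond these were chosen after their values were seen. Alternatives were pseudocounts of 0.1 and 1, no minimum, centring on the median or on the weakest 10% of peaks, scaling to reads in peaks, voom on recovered reads, a replicate block, non-promoter peaks alone and leaving out each library. Tested on simulated data with these depths, the peak fit called 5 of 50 peaks raised 4-fold and 40 of 50 raised 8-fold for H3K18La, and 26 and 48 of 50 for H3K27Ac. Of 50 peaks lowered 4-fold it called 0 for H3K18La and 4 for H3K27Ac, and of 50 lowered 8-fold 3 and 15. The gene fit called 41 and 50 of 50 raised genes for H3K18La, and 47 and 50 of 50 for H3K27Ac. Of lowered genes it called 21 and 29 of 50 for H3K18La, and 36 and 44 of 50 for H3K27Ac. Each simulation changed 50 features per fold, up or down, left all others equal and assumed one spread. In the data 37.3% and 33.9% of peaks were called higher, which makes the adjustment less strict. The simulated counts therefore do not give the power of these fits in the data. RefSeq promoter windows matched all 8 genes by symbol. One listed gene is not reported here.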

Additional observations from a re-analysis of the deposited data

Results flagged for a closer look

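One member peak was flagged because every library moved one way in H3K18La and the other way in H3K27Ac. The Abca4 peak in intron 16 (chr3:122112881-122114068) had 0.798, 0.974 and 1.24 H3K18La RPKM at 5 mM and 0, 0.414 and 0 RPKM at 25 mM, a ratio of means of 0.137. These values rest on 2, 6 and 2 reads at 5 mM and 0, 2 and 0 reads at 25 mM. Its H3K27Ac values were 1.75 and 1.90 RPKM at 5 mM and 2.34 and 2.38 RPKM at 25 mM, a ratio of means of 1.29. It was under the minimum for the H3K18La test, and its difference between marks, 1.59 on the log2 scale (limma interaction term, 95% interval -0.05 to 3.22), did not pass (adjusted p = 0.903). With 2 or 3 libraries per group, no group was large enough for an outlier test.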

How the results depend on the processing

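The number of member peaks called for H3K18La (18) became 11 with no minimum, 3 with median centring and 0 with centring on the weakest 10% of peaks or scaling to reads in peaks, and lay between 12 and 20 with each library left out. For H3K27Ac (24) it became 0 with no minimum, 3 with median centring, 15 with centring on the weakest 10%, 0 per reads in peaks and 2 with the replicate block, and lay between 0 and 35 with each library left out, at 0 without replicate 1 or 2 at 25 mM. Over all peaks, the counts of 24539 (H3K18La) and 24698 (H3K27Ac) became 1040 and 1144 with median centring, 0 and 0 per reads in peaks, and 18390 and 0 with no minimum. Centring on the weakest 10% gave 0 and 10539, and H3K27Ac without replicate 1 or 2 at 25 mM gave 10 and 980. Of member genes, 6 for H3K18La became 1 per reads in peaks, where 1.98% of all genes were called higher. They stayed at 6 with each library left out, where 46.3% to 51.4% of all genes were. For H3K27Ac 6 became 2 with median centring, 2 per reads in peaks and 1 (Rbp3) with the replicate block. Of all genes 9.96%, 5.16% and 17.1% were called higher in these fits. With each library left out, the H3K27Ac log2 fold changes of the 6 genes lay between 0.92 (Impg2) and 2.63 (Rbp3). Voom called 21 and 26 member peaks, where it called 45.2% (H3K18La) and 35.0% (H3K27Ac) of all peaks tested higher. Voom and centring on the weakest 10% were not run on gene sums. The count of peaks whose change differed between marks was 0 under every alternative, gene sums (added after the data were seen) included.

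The replicate block had little to rest on, since same-numbered libraries deviated together by a correlation of only 0.0076 to 0.031 in H3K18La, and numbers were not taken as pairs. It left 7897 of the H3K27Ac peaks of the whole table called.

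Among the peaks named one by one, the sign turned under 3 scalings or 1 left-out library. For H3K18La the Impg1 intron 1 peak turned to -0.093 with median centring, -0.40 with centring on the weakest 10% and -0.25 per reads in peaks. The Rdh12 promoter peak turned to -0.80, -1.11 and -0.96, and lay between -0.44 and 0.54 with each library left out, below 0 without replicate 3 at 25 mM. The Rdh12 intron 5 peak turned to -0.042 and -0.010 under the latter pair of scalings. For H3K27Ac the Impg1 intron 1 peak turned to -0.13 and the Impg2 peak before the start site to -0.13 per reads in peaks. Rdh12 summed over its peaks turned to -0.14 for H3K18La per reads in peaks. The cause of these changes was not tested, beyond the scaling itself. Depth limits the H3K18La peaks, where single member peaks held 0 to 33 reads per library at 5 mM.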
